A study of Rattus norvegicus with 50 samples.

Results

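The genes described here are 47 lysosomal genes of the rat lung, listed by gene name for their known function, with earlier results of these data known. They comprise 10 cathepsins and other proteases, 12 glycan hydrolases, 7 lipid hydrolases and lipid handling proteins, 3 genes for acid phosphatases and progranulin, 8 membrane proteins, 5 proton pump subunits and 2 transcription factors. All 47 were found on the array by gene symbol and all 47 passed the filter on dim probes, out of 25208 genes tested. Male F344 rats, an inbred strain, entered the study at 12 weeks and breathed through the nose only. Exposed rats received an aerosol of TiO2 P25, a nanostructured titanium dioxide, at 10 mg/m3 for 6 h per day on 5 days per week during 4 weeks, and control rats received filtered air under the same schedule. Lungs were collected when exposure ended, at day 0 (D0), or after a further 3 (D3), 28 (D28), 90 (D90) or 180 days (D180). With 5 rats in each of 10 groups, RNA from the accessory lobe of each rat was hybridised on its own one-colour Agilent array, which gave 50 arrays.

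Lysosomes are acidic vesicles that break down material taken up from outside the cell or delivered from within it. A proton pump in their membrane acidifies the interior, soluble hydrolases inside digest proteins, glycans and lipids, and membrane glycoproteins protect the membrane and carry products across it. In the lung, macrophages that engulf inhaled particles store them in lysosomes, and alveolar type 2 cells keep surfactant in lamellar bodies, organelles related to lysosomes. Many lysosomal genes carry near their start a short palindrome, the CLEAR element, with the core TCACGTGA, which is bound by the transcription factors TFEB and MITF.

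The windows that follow are shown because they hold the CLEAR core or its inner 6 bases, and binding of any factor was not measured. RefSeq promoters on rat assembly GRCr8, from 250 bases before to 50 bases after each start, were matched for 38 of the 47 genes. The 9 without one were Ctsb, Hexa, Arsb, Asah1, Ppt1, Arsa, Psap, Atp6v0d2 and Atp6v1h. All motifs searched are palindromes, so that 1 strand covers both, and each longer one contains the shorter ones. The motif CACGTG was found for 9 of the 38 genes (23.7%), against 6.42% of 33469 promoters of the same length, and TCACGTGA for 5 genes (13.2%) against 0.777%.  For Ctsd, Galc, Lamp1, Mcoln1 and Atp6v0d1, the 5 genes with the 8-base motif, the 100 bases before the start read as follows, 5′ to 3′ on the strand of the gene and with the motif in capitals. Mcoln1 has its 8-base match just after the start, outside the window, and the capitals there mark a CACGTG.
Ctsd, chr1:206968822-206968921, minus strand: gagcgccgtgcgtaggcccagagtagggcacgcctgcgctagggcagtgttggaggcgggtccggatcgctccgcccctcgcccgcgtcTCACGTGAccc
Galc, chr6:123245560-123245659, minus strand: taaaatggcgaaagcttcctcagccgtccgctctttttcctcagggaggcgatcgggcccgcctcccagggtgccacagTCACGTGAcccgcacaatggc
Lamp1, chr16:83075064-83075163, minus strand: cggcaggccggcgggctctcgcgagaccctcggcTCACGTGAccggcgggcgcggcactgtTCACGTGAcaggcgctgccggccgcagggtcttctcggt
Mcoln1, chr12:6358158-6358257, plus strand: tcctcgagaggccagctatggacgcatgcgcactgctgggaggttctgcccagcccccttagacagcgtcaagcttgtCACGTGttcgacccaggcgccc
Atp6v0d1, chr19:50357249-50357348, minus strand: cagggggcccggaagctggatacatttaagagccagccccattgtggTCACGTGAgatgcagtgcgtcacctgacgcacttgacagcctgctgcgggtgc
The first base of the 8-base match lay at -11 for Ctsd, -21 for Galc, -66 and -39 for Lamp1, 4 for Mcoln1 and -53 for Atp6v0d1, counted from the start. The other genes with CACGTG were Gaa, Glb1, Sgsh and Cd63. No CACGTG was found in the promoter of Ctsk, one of the genes with the largest changes. The 100 bases before its start are printed for comparison, with no motif in capitals.
Ctsk, chr2:185747448-185747547, plus strand: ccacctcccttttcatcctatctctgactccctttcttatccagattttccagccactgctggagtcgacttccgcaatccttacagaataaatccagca

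Across the series, array medians of the processed signal (linear fluorescence units) lay between 198 and 473. By the mark of the extraction software, 68.7% to 84.5% of gene spots were well above background, and arrays of the same group correlated at 0.973 to 0.996 across genes, which are not independent replicates. The arrays lay on 7 slides. Arrays of D0, D3 and D28 lay on 4 of them and arrays of D90 and D180 on the other 3, except for replicate 1 of the exposed rats at D3, which lay with the later days, and a fit with slide as a block is given below beside the main values. The tissue carried the markers of lung, with 8 of 8 alveolar type 2 genes, 6 of 6 endothelial, 6 of 6 ciliated cell and 11 of 11 macrophage genes tested well above background on all 50 arrays. Cardiac muscle markers were also present, with 5 of 6 well above background on all arrays. Of the 47 lysosomal genes, 44 were well above background on every array. Gla was so on 49 arrays, Galc on 48 and Sgsh on 10, with 0 of 5 in the exposed and control groups at D28 and in the control group at D180, and no fold is given for Sgsh. It stays in the counts and medians over the 47 genes.

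At D0, exposure was followed by higher levels of Atp6v0d2, which encodes an isoform of a subunit in the membrane sector of the proton pump known from osteoclasts and macrophages, and of Ctsk, a collagen-degrading cathepsin also best known from osteoclasts. These were over-expressed 2.31-fold and 1.89-fold. By the adjusted p alone, a rule added after the values were seen, 15 of the 47 genes rose, against 6.93% of all genes. Besides Atp6v0d2 and Ctsk, these were 13 genes with smaller increases, from all classes but the transcription factors. They included the proteases Ctsb, Ctsz and Lgmn, the glycan hydrolases Gusb, Fuca1 and Arsb, the cholesterol carrier Npc2, progranulin (Grn) and the membrane proteins Lamp2, Cd63 and Laptm5. No lysosomal gene fell by the adjusted p at any day, while 1 was lower at an unadjusted limma p under 0.05 at D0 and 1 at D3. From D90 on, none of the 47 genes passed the adjusted p in the main fit. With slide as a block, 8 rose at D90 and 6 at D180, all under the fold limit, against 2.63% and 2.68% of all genes.

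Exposed rats were set against the controls of the same day to ask how far, and for how long, these genes responded to the inhaled particles. Genes were called differentially expressed genes (DEGs) at a change of at least 1.5-fold and a limma p, adjusted by Benjamini–Hochberg over all 25208 genes, under 0.05. At D0, 2 of 47 lysosomal genes were DEGs, against 4.27% of all genes. There were 0 DEGs at D3 against 3.48%, and 1 at D28, Atp6v0d2, against 1.33%. At both D90 and D180 there were 0, against 0.381% and 0.325%. At D3, D90 and D180, where limma called 0, an unadjusted p under 0.05 was reached by 20, 12 and 5 lysosomal genes that were higher and by 1, 0 and 0 that were lower in exposed rats. Of all genes, 9.56%, 4.11% and 4.95% were higher and 12.2%, 3.01% and 3.09% lower by that rule. With slide as a block, the DEGs numbered 3, 2, 1, 0 and 0 from D0 to D180, against 5.57%, 4.01%, 1.98%, 0.603% and 0.555% of all genes. In counts of DEGs the lysosomal genes thus stood near the background.

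Most differences were smaller than 1.5-fold. By the adjusted p alone, a rule added after the values were seen, 15, 9, 6, 0 and 0 lysosomal genes rose from D0 to D180, and 0 fell at any of these days. Of all genes, 6.93%, 4.89%, 2.44%, 0.69% and 0.635% rose by this rule and 6.57%, 5.53%, 1.45%, 0.357% and 0.258% fell. With slide as a block these counts were 28, 24, 27, 8 and 6 of 47, against 13.5%, 9.26%, 7.05%, 2.63% and 2.68% of all genes. The median log2 change of the 47 genes from D0 to D180 was 0.20, 0.15, 0.17, 0.12 and 0.07, while the median of all genes lay between -0.01 and 0.00. Exposed means were above control means for 43, 38, 44, 43 and 40 of the 47 genes, against 48.3%, 48.7%, 49.7%, 50.1% and 51.1% of all genes. At D0, 29 of them lay above the 75th percentile of all genes and 3 above the 95th, so that the difference was one of many small positive values and few large ones. In whole tissue, more cells of a type and more RNA per cell cannot be told apart.

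**Figure D1:**
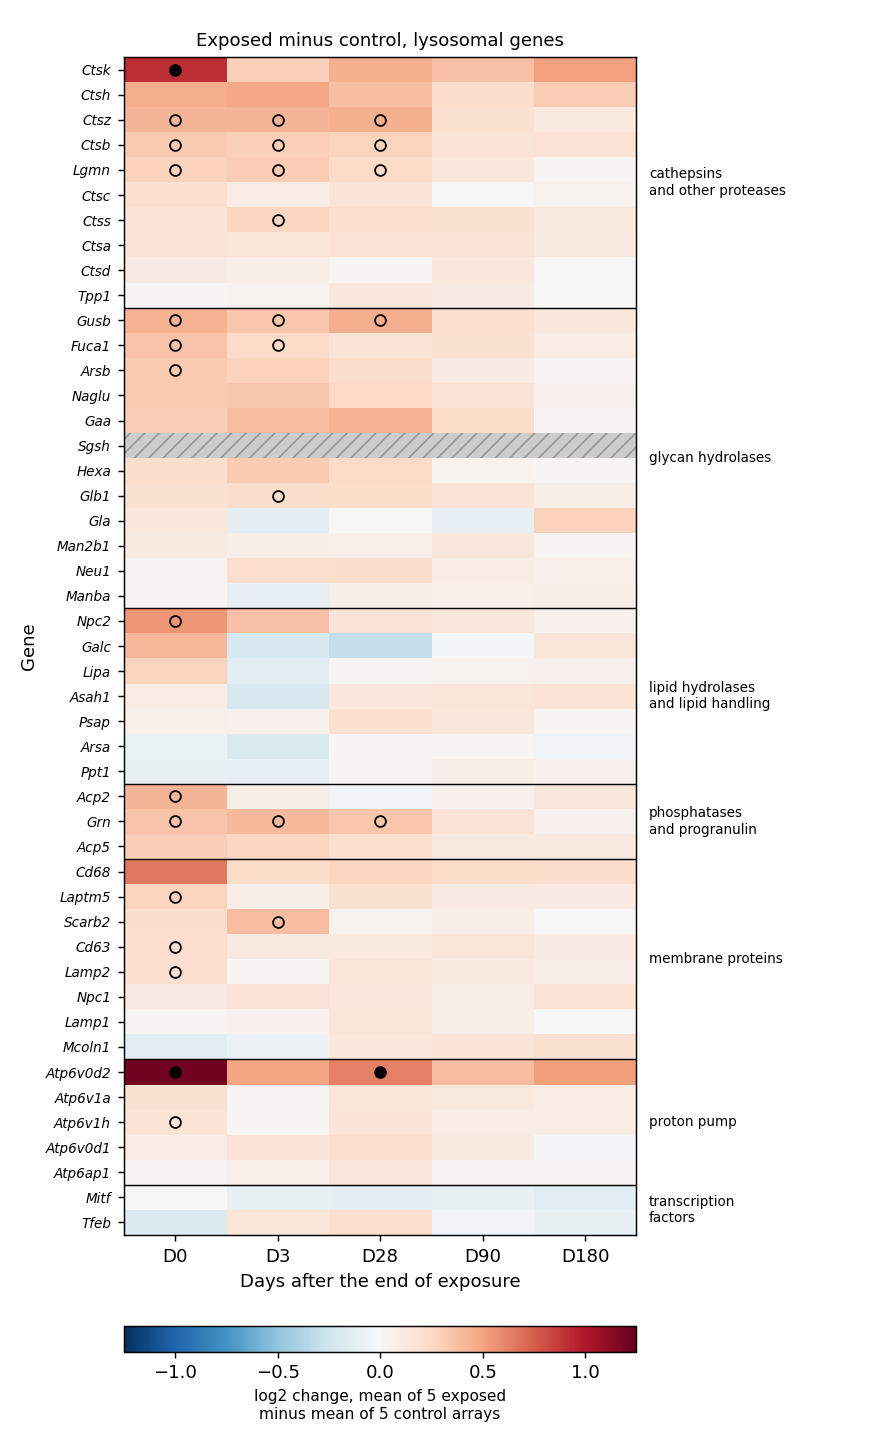
Log2 change of each lysosomal gene, as the mean of 5 exposed minus the mean of 5 control arrays, at the 5 days (columns), with genes in rows by class and ordered within a class by their change at D0. Filled circles mark DEGs, open circles genes past the adjusted p alone, and Sgsh is hatched because it was well above background on 10 arrays only. Circles stand at D0, D3 and D28 and none at D90 or D180, and the darkest cell is Atp6v0d2 at D0, at 1.21.

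Atp6v0d2 was the lysosomal gene with the largest change at D0. On the quantile normalized log2 scale its control arrays at D0 read 9.32, 9.48, 9.72, 9.18 and 9.53, and its exposed arrays 10.52, 10.33, 11.02, 10.46 and 10.94. All 5 exposed arrays stood above all 5 control arrays. The means were 9.45 ± 0.21 (SD, n = 5) and 10.65 ± 0.31 (SD, n = 5), a log2 change of 1.21 (SE 0.17, 95% confidence interval 0.87 to 1.55, limma adjusted p = 5.71e-07). Within the 4 slides, the difference was 1.21, 1.54, 1.22 and 1.1, each from 1 or 2 arrays of a group, so that it was seen on each slide.

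At D3 the control arrays read 9.87, 10.15, 9.84, 9.89 and 9.96 for Atp6v0d2 and the exposed arrays 10.15, 10.16, 10.11, 10.73 and 11.01. Here 3 of the 5 exposed arrays stood above all controls, and the log2 change of 0.49 did not pass the threshold (limma adjusted p = 0.0542; 0.00266 with slide as a block). At D28 the control arrays read 10.23, 10.38, 9.63, 10.04 and 9.58 and the exposed arrays 10.31, 10.28, 10.92, 10.66 and 10.81. The groups overlapped again, with 3 exposed arrays above all controls. The log2 change was 0.63 (95% confidence interval 0.29 to 0.96), 1.54-fold and so just past the fold limit (limma adjusted p = 0.0225; 0.000754 with slide as a block). The call was lost when replicate 3 (limma adjusted p = 0.0809) or 5 (0.0689) of the controls or replicate 3 (0.075), 4 (0.0547) or 5 (0.0827) of the exposed rats was left out.

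At D90 the Atp6v0d2 control arrays lay within a narrow range, at 9.52, 9.56, 9.51, 9.61 and 9.64, and the exposed arrays at 9.88, 9.92, 9.64, 10.21 and 10.10. At D180 the control arrays read 9.27, 10.02, 9.45, 9.69 and 9.67 and the exposed arrays 10.12, 10.54, 9.96, 9.95 and 10.11. At these days 4 and 3 of the 5 exposed arrays were above all controls. The log2 changes of 0.38 at D90 (limma adjusted p = 0.547) and 0.52 at D180 (0.168) did not pass the threshold, although with slide as a block the value at D180 had an adjusted p of 0.0247, still under the fold limit.

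Ctsk showed the next largest change at D0. Its control arrays read 11.16, 11.28, 11.59, 11.01 and 11.32, and its exposed arrays 12.06, 11.82, 12.65, 11.92 and 12.52. The 2 groups did not overlap. Their means were 11.27 ± 0.22 (SD, n = 5) and 12.19 ± 0.37 (SD, n = 5), a log2 change of 0.92 (SE 0.17, 95% confidence interval 0.57 to 1.27, limma adjusted p = 0.000125), and within slides it was 0.86, 1.37, 0.92 and 0.82. At D3 the controls read 11.82, 11.99, 11.64, 11.69 and 11.85 and the exposed arrays 11.76, 11.87, 11.72, 12.44 and 12.68. At D28 they read 12.13, 12.43, 11.63, 12.22 and 11.62 in controls and 12.25, 12.11, 12.93, 12.33 and 12.63 in exposed rats. The groups overlapped at both days, with log2 changes of 0.30 (limma adjusted p = 0.335; 0.0199 with slide as a block) and 0.44 (0.157; 0.00492 with slide as a block) and with 2 exposed arrays above all controls.

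At D90 Ctsk read 11.56, 11.40, 11.42, 11.60 and 11.42 in controls and 11.70, 11.81, 11.64, 12.02 and 12.09 in exposed rats. At D180 it read 11.21, 11.42, 11.26, 11.53 and 11.43 in controls and 11.80, 12.34, 11.68, 11.73 and 11.90 in exposed rats. All exposed arrays were again above all controls at both days, with log2 changes of 0.37 and 0.52. Neither passed over all genes (limma adjusted p = 0.638 and 0.198), and with slide as a block the adjusted p was 0.0929 at D90 and 0.0139 at D180.

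**Figure D2:**
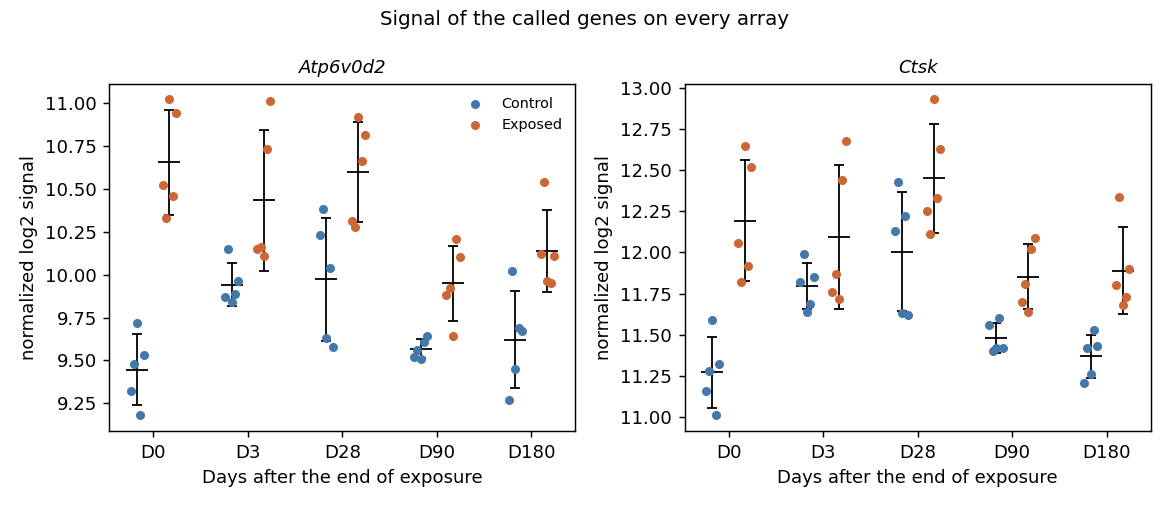
Quantile normalized log2 signal of Atp6v0d2 and Ctsk on each array, by day, with the mean and SD of the 5 control and the 5 exposed rats. For both genes the groups are apart at D0, and the control arrays of Ctsk at D28 reach 12.43, within the range of the exposed arrays of D0.

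Among the proteases, all 10 had higher means in exposed rats at D0, with a median log2 change of 0.24 and values from 0.01 for Tpp1, a tripeptidyl peptidase, to 0.92 for Ctsk. At D0, D3 and D28, 4, 4 and 3 rose by the adjusted p alone, and 8, 8 and 9 with slide as a block. Ctsb, a broadly expressed cysteine cathepsin, is given with its arrays, as are the other genes below, because of values seen at D0 or D3. Its control arrays at D0 read 16.88, 16.76, 16.88, 16.93 and 16.90 and its exposed arrays 17.22, 17.29, 17.04, 17.25 and 17.19. The ranges were apart, and the log2 change of 0.33 (SE 0.06, limma adjusted p = 7.99e-05) was followed by 0.29 at D3 (0.000521) and 0.28 at D28 (0.00351).

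Ctsz, a carboxypeptidase, read 11.63, 11.17, 11.21, 11.29 and 11.72 in controls at D0 and 11.99, 11.67, 11.83, 11.80 and 11.84 in exposed rats. Exposed replicate 2 lay below the highest control, and the log2 change was 0.42 at D0 (limma adjusted p = 0.00826), 0.42 at D3 (0.0105) and 0.45 at D28 (0.0166), so that its size hardly moved over these days. Lgmn, the asparaginyl endopeptidase that trims other lysosomal proteases, rose at the same 3 days by 0.29, 0.32 and 0.24 on the log2 scale (limma adjusted p = 0.00139, 0.000481 and 0.0246). Its controls at D3 read 13.35, 13.40, 13.32, 13.40 and 13.35 and its exposed arrays 13.55, 13.69, 13.57, 13.74 and 13.86, without overlap. Ctss, a cathepsin of antigen-presenting cells, passed at D3 (and, if slide was blocked, at D0 and D28), with a log2 change of 0.26 (limma adjusted p = 0.00367), and its D3 arrays ran from 13.42 to 13.66 in controls and from 13.69 to 13.90 in exposed rats.

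Ctsh, an aminopeptidase also made by alveolar type 2 cells, varied widely within groups. At D3 its controls read 15.86, 15.80, 15.12, 15.28 and 15.61 and its exposed arrays 15.67, 15.76, 15.75, 16.34 and 16.58. The log2 change of 0.49 did not pass (limma adjusted p = 0.0958), but within each of the 4 slides exposed arrays were higher, by 0.47 to 0.87, and with slide as a block Ctsh was a DEG at D3 (log2 change 0.63, adjusted p = 1.17e-08). Ctsd, the main aspartic protease of lysosomes, had log2 changes between -0.01 and 0.14 over the 5 days.

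Glycan hydrolases had a median log2 change of 0.24, 0.27, 0.23, 0.16 and 0.07 from D0 to D180. At D0 they ranged from 0.03 for Manba, the β-mannosidase, to 0.44 for Gusb, the β-glucuronidase. In this class 3, 3 and 1 rose at D0, D3 and D28 by the adjusted p alone, and 7, 8 and 7 with slide as a block. Gusb read 10.55, 10.34, 10.30, 10.40 and 10.55 in controls at D0 and 10.93, 10.93, 10.84, 10.86 and 10.76 in exposed rats. At D28 the controls read 10.27, 10.39, 10.40, 10.38 and 10.50 and the exposed arrays 10.60, 10.85, 10.71, 11 and 11.06. The groups were apart at both days. The log2 change was 0.44 at D0 (limma adjusted p = 8.54e-06), 0.35 at D3 (0.000411) and 0.46 at D28 (2.06e-05), and it did not pass at D90 or D180 unless slide was blocked (adjusted p = 0.00197 and 0.0305). Of its 3 probes, another bright one gave 0.31 at D0, and a dim one, above the negative controls on 14 arrays, gave -0.60.

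Fuca1, the α-fucosidase, read 14.57, 14.63, 14.71, 14.64 and 14.48 in controls at D0 and 14.82, 15.00, 14.99, 14.98 and 15.00 in exposed rats, again without overlap. Its log2 change was 0.36 at D0 (limma adjusted p = 6.19e-05) and 0.24 at D3 (0.0076). Arsb, a sulfatase of glycosaminoglycans, rose at D0 by 0.33 (limma adjusted p = 0.0314) and Glb1, the β-galactosidase, at D3 by 0.22 (0.0476). Naglu, an enzyme of heparan sulfate breakdown, had a log2 change of 0.33 at D0 that missed the threshold (limma adjusted p = 0.0582; 0.000121 with slide as a block), and Gaa, the glycogen-degrading α-glucosidase, one of 0.31 (0.146; 4.03e-05 with slide as a block).

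Lipid hydrolases and lipid handling proteins had the lowest medians of the enzyme classes, at 0.09 at D0, -0.14 at D3 and 0.03 at D28, which became 0.08, -0.02 and 0.12 with slide as a block. Of the 7 genes 1 rose at D0 by the adjusted p alone and 0 at any other day, and with slide as a block 2, 1 and 3 rose at D0, D3 and D28. At an unadjusted limma p under 0.05, the difference for Asah1, the acid ceramidase, was -0.20 at D3 (limma adjusted p = 0.214). The gene that passed without the block was Npc2, the cholesterol carrier of the lysosomal lumen, which read 15.36, 15.91, 15.87, 15.18 and 15.36 in controls at D0 and 15.82, 15.87, 16.45, 15.82 and 16.50 in exposed rats. The groups overlapped, and the log2 change was 0.56 (SE 0.17, limma adjusted p = 0.024), or 0.45 to 0.67 within the 4 slides. At the other end stood Ppt1, a thioesterase, at -0.09 at D0 in the same class. Galc, the galactosylceramidase, had a log2 change of 0.41 at D0 that did not pass (limma adjusted p = 0.295). Its value of -0.30 at D28 (0.559) came from control replicate 1, which read 7.52 while the other controls read 6.20, 6.03, 5.92 and 5.54 and the exposed arrays 6.11, 5.59, 6.12, 5.95 and 5.96, and it was 0.02 without that array.

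Of the phosphatases and progranulin, Grn passed at 3 days. Progranulin is a secreted and lysosomal precursor that is cut into granulins. Grn read 14.32, 14.03, 14.15, 14.23 and 14.39 in controls at D0 and 14.65, 14.54, 14.48, 14.62 and 14.62 in exposed rats, and these ranges were apart. Its log2 change was 0.36 at D0 (limma adjusted p = 0.000773), 0.41 at D3 (0.000171) and 0.34 at D28 (0.00481). Acp2, a lysosomal acid phosphatase, read 12.39, 12.64, 12.89, 12.58 and 12.33 in controls at D0 and 12.75, 12.97, 13.18, 12.83 and 13.23 in exposed rats. It rose by 0.43 at D0 (limma adjusted p = 0.0236) and stood at 0.07 at D3. Acp5, the tartrate-resistant acid phosphatase of osteoclasts and macrophages, had a log2 change of 0.31 at D0 that did not pass (limma adjusted p = 0.137; 0.00306 with slide as a block).

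The 8 membrane proteins had medians of 0.21 at D0, 0.10 at D3 and 0.14 at D28, and by the adjusted p alone 3 of them rose at D0, 1 at D3 and 0 at D28, or 5, 4 and 4 with slide as a block. Laptm5, a lysosomal membrane protein of blood cells, read 16.10, 16, 16.16, 16.12 and 16.13 in controls at D0 and 16.37, 16.52, 16.30, 16.43 and 16.27 in exposed rats, without overlap (log2 change 0.28, limma adjusted p = 0.00199). Lamp2 and Cd63, which coat the lysosomal membrane, rose by 0.20 and 0.21 (limma adjusted p = 0.0269 and 0.0335), whereas Lamp1 stood at 0.04. Scarb2, the receptor that carries glucocerebrosidase to lysosomes, passed at D3, where controls read 9.60, 9.66, 9.22, 9.58 and 9.48 and exposed arrays 9.92, 9.61, 9.80, 9.90 and 10.22 (log2 change 0.38, limma adjusted p = 0.00772). Only exposed replicate 2 lay within the range of the controls.

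Cd68, a lysosomal glycoprotein used as a macrophage marker, had the largest change of the membrane proteins at D0 but did not pass. Its controls read 13.45, 14.32, 14.26, 13.22 and 13.56 and its exposed arrays 14.05, 13.86, 15.25, 13.93 and 15.01. Controls 2 and 3 and exposed replicates 3 and 5 were the high arrays, and all 4 lay on slides 2 and 3. The log2 change was 0.66 (SE 0.26, 95% confidence interval 0.13 to 1.18, limma adjusted p = 0.0939). Within the 4 slides it was 0.54 to 0.93, and with slide as a block Cd68 was a DEG at D0 (log2 change 0.68, adjusted p = 3.43e-07).

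Mcoln1, the calcium channel of the lysosomal membrane, was the only gene of this class with a lower mean in exposed rats at D0. At D0 its controls read 11.31, 11.09, 11.21, 11.32 and 11.33 and its exposed arrays 11.34, 11.11, 11.15, 10.94 and 11.02. At D90 the controls read 10.99, 11.01, 11.03, 11.08 and 11.07 and the exposed arrays 11.17, 11.12, 11.19, 11.29 and 11.20. At D180 they read 11, 10.96, 11.04, 11.03 and 11.02 in controls and 11.23, 11.28, 11.19, 11.19 and 11.09 in exposed rats. The groups overlapped at D0 and were apart at D90 and D180. Within the 4 slides at D0 the difference ran from -0.30 to 0.06, and exposed arrays were higher on 2 of them. At D28, D90 and D180 they were higher on each of 3 slides. No single day passed the threshold, with log2 changes of -0.14 at D0 (limma adjusted p = 0.135), 0.16 at D90 (0.373) and 0.19 at D180 (0.163; 0.0274 with slide as a block).

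Apart from Atp6v0d2, the listed subunits of the proton pump had small changes. Atp6v1h, a regulatory subunit of the cytosolic sector, rose at D0 by 0.17 (SE 0.05, limma adjusted p = 0.0187), with controls at 11.66, 11.53, 11.60, 11.62 and 11.56 and exposed arrays at 11.70, 11.87, 11.69, 11.83 and 11.73. These ranges did not overlap but lay close together. Atp6v0d1, the widely expressed counterpart of Atp6v0d2, had a log2 change of 0.10 at D0 (95% confidence interval -0.03 to 0.22, limma adjusted p = 0.433), Atp6v1a, the catalytic subunit, one of 0.19 (0.0551; 0.0192 with slide as a block) and the accessory subunit Atp6ap1 one of 0.01. Of 19 further pump subunits, 0 were DEGs at D0, against 4.27% of all genes, and 2 rose by the adjusted p alone, against 6.93%. Their median log2 change was 0.04. With slide as a block, 7 of these 19 rose at D0 and 6 at D28, against 13.5% and 7.05% of all genes. Of the 5 listed subunits, 3 rose at D0 and 3 at D28 with the block.

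The transcription factors of the list did not pass at any day. Tfeb read 9.49, 8.40, 8.46, 9.04 and 9.23 in controls at D0 and 9.22, 8.78, 8.63, 8.82 and 8.29 in exposed rats. The groups overlapped throughout, and the log2 change of -0.17 had a 95% confidence interval of -0.62 to 0.27 (limma adjusted p = 0.76). Mitf stood at 0.01 at D0, and its 3 probes disagreed in sign. Among genes with a matched promoter, the median log2 change at D0 was 0.10 for the 5 genes with TCACGTGA and 0.22 for the 33 without it, and 0 of 5 and 11 of 33 passed the adjusted p alone. For CACGTG it was 0.19 for the 9 genes with the motif and 0.22 for the 29 without, and at D90 0.15 and 0.11. Atp6v0d2, Ctsb, Arsb and Atp6v1h passed the adjusted p alone at D0 but had no matched promoter, so they are outside this comparison.

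**Figure D3:**
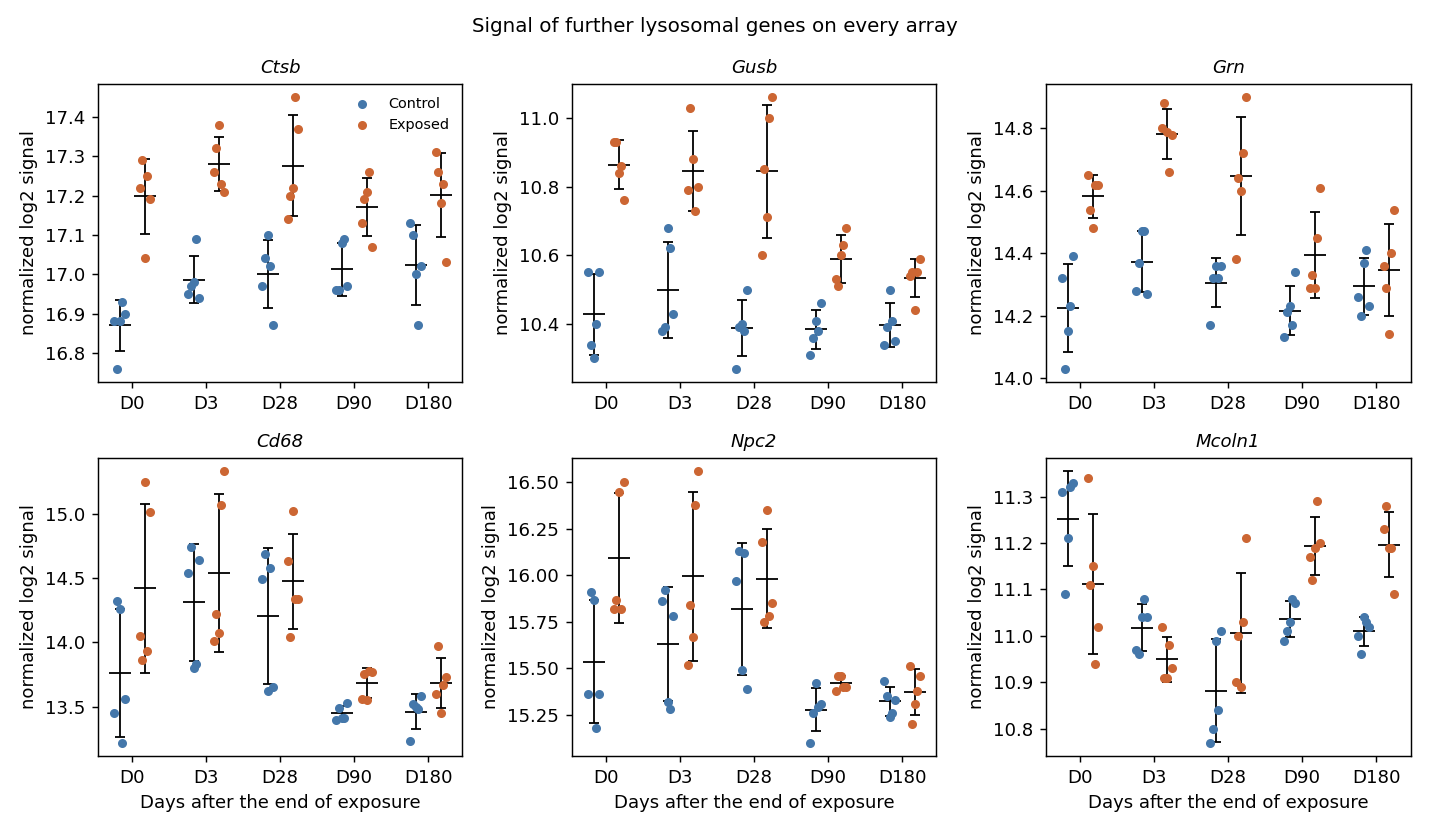
Quantile normalized log2 signal of Ctsb, Gusb, Grn, Cd68, Npc2 and Mcoln1 on each array, by day, with the mean and SD of 5 control and 5 exposed rats. Ctsb, Gusb and Grn have tight groups that are apart at D0, D3 and D28, Cd68 spreads from 13.22 to 15.25 at D0, and Mcoln1 has exposed arrays above all controls at D90 and D180.

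Groups that did not overlap were counted over all 47 genes. All 5 exposed arrays were above all 5 controls for 10, 7, 4, 13 and 4 genes from D0 to D180, against 4.76%, 3.36%, 2.23%, 2.2% and 2.77% of all genes with a value on every array. For 0 of the 47 were all exposed arrays below all controls, which 3.77%, 3.43%, 1.57%, 1.63% and 1.45% of all genes were. The 13 genes at D90 were Ctsa, Ctsh, Ctsk, Ctss, Ctsz, Glb1, Gusb, Psap, Lamp2, Cd63, Cd68, Mcoln1 and Atp6v0d1, and the 4 at D180 were Ctsa, Ctsh, Ctsk and Mcoln1. Sgsh is among the 4 at D28. At D90 and D180 these differences were small, and 32 and 17 of the 47 genes lay above the 75th percentile of the changes of all genes. On every slide that held both groups, exposed arrays were higher for 30 genes at D0 and 25 at D3 (4 slides each), and for 39 at D28, 33 at D90 and 21 at D180 (3 slides each), against 18.3%, 15.8%, 24.4%, 17.7% and 18.6% of all genes.

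**Figure D4:**
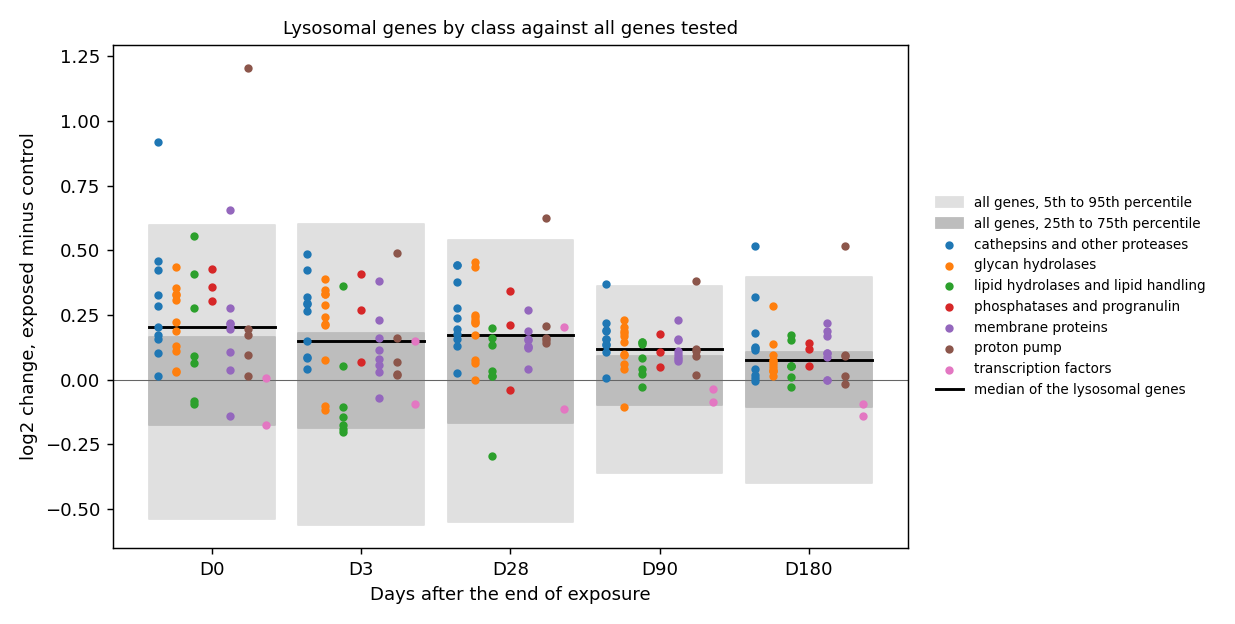
Log2 change of the lysosomal genes by class (coloured points, without Sgsh) at each day, with the 5th to 95th and 25th to 75th percentiles of all 25208 genes as grey bands and the median of the 47 genes as a black line. The median lies above the 75th percentile of all genes at D0, D28 and D90, and the lipid group sits lowest of the enzyme classes at D3, at a median of -0.14 (-0.02 with slide as a block).

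Whether the response at a later day differed from that at D0 was tested as an interaction. As a DEG the difference was found for 0 of 47 genes at D3, 0 at D28, 1 for D90 and 0 for D180, against 0.678%, 1.6%, 2.17% and 2.24% of all genes. At an unadjusted p under 0.05, limma gave 5 genes with a lower log2 change at D3 than at D0 and 0 with a higher one. The counts were 4 and 1 at D28, and 6 and 1 at D180. Of all genes, 5.69%, 6.73% and 6.09% had a lower and 4.14%, 6.34% and 7.07% a higher log2 change by that rule. With slide as a block the DEGs numbered 0, 0, 1 and 1, against 1.24%, 2.55%, 3.37% and 3.57% of all genes. The response of Atp6v0d2 at D90 was smaller than at D0, by 0.83 on the log2 scale (SE 0.24, limma adjusted p = 0.0359; 0.00304 with slide as a block). Left out one at a time, 12 of the 20 arrays involved took this call away, with adjusted p up to 0.0958. By the adjusted p alone, 0, 0, 2 and 1 genes passed from D3 to D180, against 0.928%, 2.6%, 3.77% and 3.99% of all genes. These were Atp6v0d2 at D90 and Mcoln1, whose log2 change was negative at D0 and positive at D90 and D180. The change of Mcoln1 was higher than at D0 by 0.30 at D90 (limma adjusted p = 0.037) and by 0.33 at D180 (0.0159). When slide was blocked, 0, 3, 9 and 13 of the 47 genes passed the adjusted p alone from D3 to D180, against 3.83%, 8.42%, 13.3% and 13.5% of all genes. Of the 9 at D90 and the 13 at D180, the log2 change was lower than at D0 for 8 and 12.

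Control rats were compared with each other across days that shared slides, which gives the differences that arise without particles. Between D3 and D0 0 of 47 genes were DEGs (9 higher and 2 lower at an unadjusted limma p under 0.05, against 9.12% and 8.66% of all genes), between D28 and D0 1, and between D180 and D90 0 (0 higher and 0 lower at an unadjusted limma p under 0.05, against 2.32% and 2.49%), against 2.32%, 2.48% and 0.0198% of all genes. The DEGs numbered 0, 2 and 0 when slide was blocked, against 3.09%, 3.56% and 0.0912%. The 1 gene was Ctsk, at 12.01 ± 0.36 (SD, n = 5) in D28 controls against 11.27 ± 0.22 (SD, n = 5) at D0, a log2 difference of 0.73 (SE 0.17, limma adjusted p = 0.00428). By the adjusted p alone, 4 genes differed between D28 and D0, 4 between D3 and D0 and 0 between D180 and D90, against 7.07%, 7.35% and 0.0278% of all genes. With slide as a block they numbered 15, 15 and 0, against 18%, 18.9% and 0.373%. Atp6v0d2 was higher in D28 than in D0 controls by 0.52 (limma adjusted p = 0.048), Laptm5 by 0.21 (0.0349), and Mcoln1 was lower, by a log2 difference of -0.37 (2.65e-05). Between D3 and D0, Acp2 and Laptm5 were higher by 0.42 and 0.22 and Ctss and Mcoln1 differed by -0.22 and -0.23 (limma adjusted p = 0.0434, 0.0294, 0.0259 and 0.00995). Control means at D0 lay below those at D3 for 36 of the 47 genes and below those at D28 for 37, against 48.6% and 47.9% of all genes.

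The level of the 47 genes on each array was summarised as the mean of their log2 values, each taken relative to its mean over the 50 arrays. At D0 it ran from -0.22 to -0.04 in controls and from 0.04 to 0.22 in exposed rats. At D3 the ranges were -0.05 to 0.04 and 0.05 to 0.27, and at D28 -0.11 to 0.10 and 0.10 to 0.27. They did not overlap but nearly touched at D3 and D28. At D90 and D180 the exposed arrays lay from -0.08 to 0.01 and from -0.08 to 0.00. They were above their own controls (-0.22 to -0.11 and -0.15 to -0.11) but within the range of the D28 controls, which lay on other slides. In this comparison with the D28 controls, day and slide cannot be told apart.

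**Figure D5:**
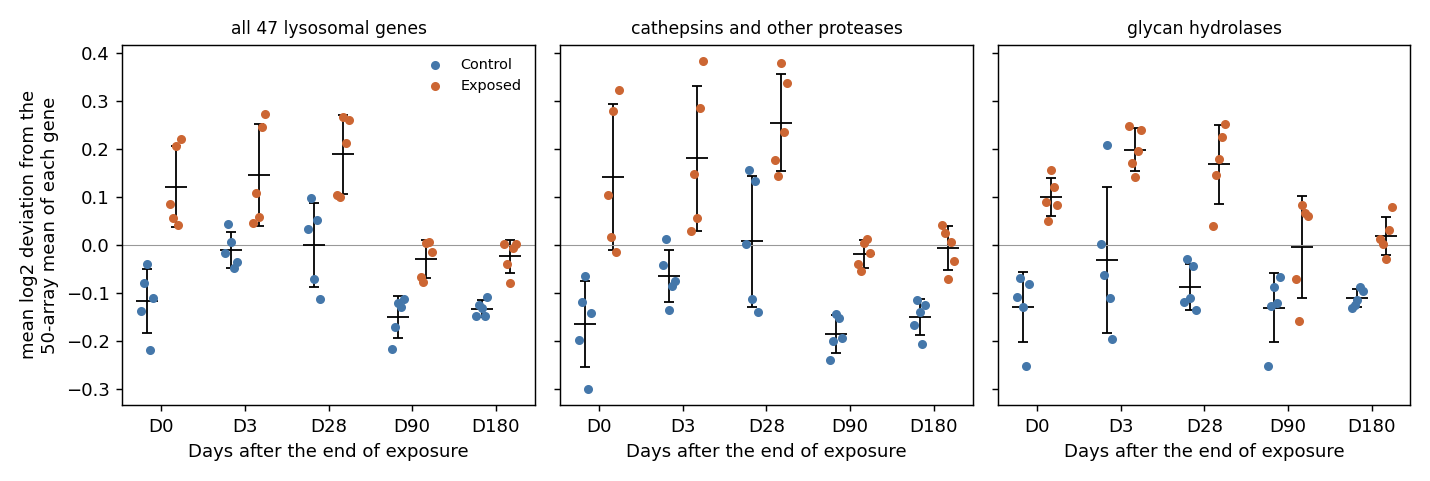
Mean log2 deviation from the 50-array mean on each array, by day and group, over all 47 lysosomal genes, over the cathepsins and other proteases and over the glycan hydrolases. For all 47 genes the exposed arrays lie above the controls of the same day, and the difference of the means is 0.24 at D0 and 0.11 at D180.

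Markers of cells that could carry these genes were read at D0, where some lists moved with them and others did not. Their part in the changes was not tested. At D0, 8 of 11 macrophage markers rose by the adjusted p alone, and the mean log2 deviation over the list ran from -0.39 to -0.12 in controls and from 0.07 to 0.19 in exposed rats. Csf1r and Mertk, of the same list, had log2 changes of -0.20 and -0.34 (limma adjusted p = 0.0592 and 0.0974; 0.0491 and 0.0395 with slide as a block). Of 8 markers of resident alveolar macrophages 0 passed at D0 by limma (1 higher and 1 lower at an unadjusted p under 0.05; the same numbers past the adjusted p with slide as a block), with ranges of -0.12 to 0.15 in controls and -0.18 to 0.22 in exposed rats. Marco, a defining gene of that list, was well above background on 11 arrays only. Of 8 markers of lipid-associated macrophages 4 rose at D0, the ranges being -0.45 to -0.17 and 0.11 to 0.36, and Spp1, which encodes osteopontin, had a log2 change of 2.40 (limma adjusted p = 5.55e-09). Cd9 and Apoe, of that list, stood at -0.26 and -0.23 and fell with slide as a block only. Of 8 alveolar type 2 markers 4 rose, with ranges of -0.17 to -0.08 and 0.08 to 0.17. Of 6 endothelial markers 4 fell, with ranges of 0.15 to 0.31 in controls and -0.39 to -0.17 in exposed rats. Of all genes, 6.93% rose and 6.57% fell at D0 by the adjusted p alone. Lamp3 and Napsa, of the type 2 list, and Gpnmb and Cd9, of the lipid-associated list, are also among the further lysosome genes below.

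Because Atp6v0d2, Ctsk and Acp5 are known from osteoclasts, 5 osteoclast markers on the array were also read. At D0 Tnfrsf11a, the receptor for the osteoclast cytokine RANKL, and Dcstamp, a fusion protein of osteoclasts and macrophages, rose by 1.16 and 0.79 on the log2 scale (limma adjusted p = 1.28e-08 and 0.000468). The other 3 did not pass, and the median of the list was -0.04. Calcr, the calcitonin receptor, was well above background on 5 of the 50 arrays.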

How the data were processed

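Gene expression was measured in RNA from the accessory lobe of 50 rats, 1 one-colour Agilent array per rat, and groups came from the sample labels. Per the file headers, the deposited files hold fluorescence intensity per spot from Agilent Feature Extraction 11.0.1.1, where the study's methods name a later release. The processed signal used here is background-subtracted and spatially detrended by that software and not scaled between arrays. The authors also deposited a matrix of intensity values for 58753 spots, by its values the median spot intensity, quantile normalized and linear, which served as an alternative. The study's pipeline also removed batch terms that are not named.

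Spots of a probe were averaged as log2 values without non-uniform or outlier spots, and arrays were quantile normalized. Probes above the 95th percentile of 308 negative controls on at least 5 arrays were kept (29549), and the probe with the highest mean signal stood for a gene. Of the 47 genes, 8 had more than 1 probe. Gene names of 84 spots altered in 22 files were taken from the other files. One mean per group was fitted with limma 3.58.1 in R 4.3.3, all 50 arrays sharing moderated variances. The p-values were two-sided, with Benjamini–Hochberg adjustment over 25208 genes. They rest on the spread between arrays of a group, 1 array per rat, and in the main fit that spread includes differences between slides. The script was tested on simulated data. Alternatives were 75th percentile scaling, normexp with an offset of 50, a filter on 25 arrays or none, all probes averaged, slide or replicate number as a block, no fold limit, only the arrays of the days compared, the deposited matrix, and each array left out. The members and lists were chosen with earlier results of these data known. The rule for genes printed with every array took members called at 3 or more days (0), the largest called change at each day (Atp6v0d2) and, to reach 6, the other members called at D0 (Ctsk). Further genes were chosen after their values were seen.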

Additional observations from a re-analysis of the deposited data

Results flagged for a closer look

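In groups of 5, an array was singled out when its gap to the nearest other array was over 0.71 of the range of the group. Of 470 pairs of a lysosomal gene and a group, 25 (5.32%) met this, where chance gives about 1 in 20, and those of genes and days described with every array are given here. Atp6v0d2 read 10.54 in exposed replicate 2 at D180, while the other 4 arrays lay between 9.95 and 10.12. Fuca1 read 14.82 in exposed replicate 1 at D0, while the others lay between 14.98 and 15.00.

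Changes of the exposure response between days that passed the adjusted p were found for 2 genes. The response of Atp6v0d2 was smaller at D90 than at D0, with a log2 difference of -0.83 (limma adjusted p = 0.0359). The log2 change of Mcoln1 was negative at D0 and positive at D90 and D180. It was higher than at D0 by 0.30 at D90 (limma adjusted p = 0.037) and by 0.33 at D180 (0.0159), below 1.5-fold at both days. Mcoln1 also differed between control rats of D28 and D0, by a log2 value of -0.37.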

How the results depend on the processing

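None of the 30 changes of a lysosomal gene at a day that passed the adjusted p turned under an alternative. Of all 235 pairs of a gene and a day 49 turned at least once, 4 of them with a log2 change of 0.2 or more: Galc at D28 and Sgsh at D0, D3 and D90. Without the fold limit, the DEGs among the 47 genes numbered 15, 9 and 6 at D0, D3 and D28, 2 and 1 for the change of response at D90 and D180, and 4 and 4 for D3 and D28 controls against D0 controls. With slide as a block they numbered 2 at D3, 1 for the change of response at D180 and 2 for D28 controls, and by the adjusted p alone 28, 24, 27, 8 and 6 from D0 to D180. With only the arrays of the days compared, there were 0 DEGs at D28 and for D28 controls, and by the adjusted p alone 6, 2 and 0 genes rose at D0, D3 and D28; Atp6v0d2 at D28 then had a limma adjusted p of 0.252. With normexp 0 were DEGs at D28 (Atp6v0d2 at 0.57), and with 75th percentile scaling or the stricter filter 2 were for D28 controls. Scaling to the 75th percentile moved the median of all genes by at most 0.05.

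Leaving out 1 array at a time gave 2 to 4 DEGs at D0 (4 without control or exposed replicate 2), 0 to 1 at D3 (1 without control replicate 3), 0 to 1 at D28, and 0 at D90 and D180. By the adjusted p alone the ranges were 10 to 17 at D0, 7 to 12 at D3, 3 to 14 at D28 (14 without exposed replicate 1; 3 without exposed replicate 4 or 5), and 0 at D90 and D180. The change of response had 0 to 1 at D90 and 0 to 1 at D180 (1 without exposed replicate 2 of D180). Controls gave 0 to 1 for D3 (1 without D0 replicate 3), 1 to 3 for D28 and 0 for D180 against D90. The median of the 47 genes at D3 was 0.11 with normexp and 0.10 without exposed replicate 4. At D0, Atp6v0d2 ran from 1.11 to 1.29 and Ctsk from 0.81 to 1.01, with limma adjusted p of at most 8.12e-06 and 0.0013. The interaction of Atp6v0d2 at D90 was lost without control replicates 1, 2 or 4 or exposed replicates 3 or 5 of D0, or control replicates 1, 2, 4 or 5 or exposed replicates 1 to 3 of D90.

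With the replicate number as a block, the counts of DEGs were the same and by the adjusted p alone 15, 8 and 6 genes rose at D0, D3 and D28. Same-numbered control and exposed arrays correlated at -0.34 to 0.45 in their deviations, with 8 of 25 over 0.1. Such arrays often lay on different slides, so this check cannot tell whether the numbers pair the rats. The number of arrays limits the precision. In data simulated for D0, 15 of 50 genes changed by 0.6 on the log2 scale and 46 of 50 changed by 2 were DEGs. A change of 0.6 lies just above the fold limit of 0.585, and 19 of those 50 passed the adjusted p. Far fewer genes were changed in the simulation than passed at D0, which makes its adjusted p stricter. These shares therefore do not measure the power of the real comparison. Of 50 genes changed by 0.3, which is under the fold limit, 15 passed the adjusted p.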

Other observations

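The wider lysosome was described by 96 further genes, from lists written by function. At D0, 5 of them were DEGs with higher and 2 with lower levels in exposed rats. By the adjusted p alone 18 rose and 7 fell at D0, 14 and 9 at D3, 7 and 0 at D28, and 0 at D90 and D180. Of all genes, 6.93% rose and 6.57% fell at D0, 4.89% and 5.53% at D3 and 2.44% and 1.45% at D28. When slide was blocked, 34 of the 96 rose and 17 fell at D0, 24 and 13 at D3, and 26 and 0 at D28. Of all 25208 genes, 3397 rose and 3682 fell at D0 with that block, 2335 and 2596 at D3, and 1778 and 1351 at D28. The median log2 change was 0.05 at D0, against 0.20 for the 47 genes above. Rnaset2, a lysosomal ribonuclease, rose by 0.76 (limma adjusted p = 1.83e-11), Slc11a2, a metal ion transporter, by 1.06 (8.31e-05), Tfec, a relative of Mitf, by 0.74 (0.00718) and Cst7, an inhibitor of lysosomal cysteine proteases, by 0.63 (0.00983). Tfec was well above background on 2 of 5 control and 5 of 5 exposed arrays at D0. The fifth, Dnase2b, an acid DNase, was well above background on 0 of 5 control and 4 of 5 exposed arrays at D0 and is given without a fold. Both genes that fell were hyaluronidases, Hyal1 and Hyal2, each with a log2 change of -0.61 (limma adjusted p = 0.00258 and 0.0452).

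Neutrophil markers rose at D0 for 2 of 8 and at D3 for 4 of 8 by the adjusted p alone. The largest change at D0 was that of S100a9, at 1.69 on the log2 scale. In exposed rats 6 of the 8 had higher and 2 lower means at D0. These counts were 7 and 1 at D3, and 4 and 4 at D28. Mpo, Elane and Ltf were well above background on 17, 2 and 3 arrays only, and no fold is given for them. Alveolar type 1 markers fell for 3 of 6 at D0 and 3 of 6 at D3. Of 10 clock genes, 1 rose and 6 fell at D0 by the adjusted p alone, and 2 rose and 6 fell at D3. At D28, D90 and D180, 6, 6 and 5 rose and 3, 2 and 2 fell. Their median log2 change turned from -0.68 and -1.17 at D0 and D3 to 0.82, 0.87 and 0.67 at the later days. Whether this difference bears on the lysosomal genes was not tested. Of all genes, 6.93%, 4.89%, 2.44%, 0.69% and 0.635% rose by this rule from D0 to D180. The shares that fell were 6.57%, 5.53%, 1.45%, 0.357% and 0.258%.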
